A study of Mus musculus with 13 samples.

Results

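Lin- cKit+ bone marrow cells, a fraction rich in hematopoietic stem and progenitor cells (HSPCs), were compared between 2 single-mutant genotypes that had not progressed to leukemia. The 3 NrasG12D mice carried Mx1-Cre with 1 activated Nras G12D allele, and the 3 p53mut mice carried Mx1-Cre with 1 activated p53 R172H allele. The libraries were taken by their labels, and these 6 mice are 6 of the 13 in the series. The comparison asked which genes and pathways separate the 2 single mutants. Mx1-Cre control mice (n = 3) set the level from which each mutant differed and shared the estimate of spread. The remaining 4 mice were moribund NPmut mice, which carried both alleles.

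Control and single-mutant mice were about 6 weeks old when they received 3 intraperitoneal injections of 100 µg polyinosinic-polycytidylic acid (pI-pC), and RNA came from 50000 sorted cells per mouse. NPmut mice received no pI-pC. All mice carried Mx1-Cre, which is switched on by interferon, so that recombination was not limited to HSPCs. Both alleles were expressed from their own loci and each mouse kept a wild-type copy. pI-pC, a mimic of viral double-stranded RNA, induces interferon by itself. Both mutants and the controls received the same stated dose and number of injections. The interval from pI-pC to collection of the cells was not compared between the groups here. The genotype field of the 3 NrasG12D mice has the digits of the substitution transposed, whereas their titles and descriptions name NrasG12D.

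NRAS is a small GTPase that relays signals from cytokine and growth factor receptors to the RAF, MEK and ERK kinases. The G12D substitution keeps it in the GTP-bound state. p53 is a transcription factor that induces arrest, repair and death genes after DNA damage, and R172H is a missense change in its DNA-binding domain. Type I interferon signals through IFNAR1 and IFNAR2 to a transcription factor complex that holds IRF9 and binds the interferon-stimulated response element (ISRE) and turns on antiviral genes. Interferon γ acts mainly through the gamma-activated sequence (GAS). In bone marrow, both kinds of interferon are known to act on stem and progenitor cells.

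Libraries of p53mut mice held between 13357504 and 16712599 counts and those of NrasG12D mice between 15179592 and 17065410 counts. Of 54838 genes in the table, 17192 passed the filter on low counts and were tested. The cells carried the transcripts of their gate. Kit ranged from 510 to 726 counts per 1000000 (CPM) over the 6 mice and Mpo, the myeloperoxidase of granulocyte progenitors, from 7854 to 15664 CPM. Lineage-defining genes of mature lymphocytes were near 0, with at most 7 counts for Cd3e and 8 counts for Cd79a in any of the 6 libraries. Reads of 1459 olfactory and vomeronasal receptor genes, which are not known to work in marrow, served as a measure of background. They summed to 98.7 ± 39.4 CPM (SD, n = 3) in p53mut and 41.4 ± 3.40 CPM (n = 3) in NrasG12D mice, and the groups did not overlap. Of the 3 mice in each group, 1 was male by its Y-linked transcripts.

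No difference in the total transcripts of the mutated genes was called. Nras was 67.3, 57.7 and 63.3 CPM in p53mut mice and 58.6, 59.9 and 62.6 CPM in NrasG12D mice (log2 fold change −0.06 ± 0.09 SE, adjusted p = 0.925 by edgeR's quasi-likelihood test). Trp53 was 131, 129 and 126 CPM in p53mut and 121, 130 and 130 CPM in NrasG12D mice (−0.01 ± 0.08, edgeR adjusted p = 0.984), with a sign that turned in 4 of the 20 alternatives. A gene count does not separate a mutant from a wild-type allele, so these values do not check the genotype labels.

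In NrasG12D HSPCs, 22 genes were higher than in p53mut HSPCs (0.128% of genes tested) and 2 were lower (0.0116%) at an adjusted p under 0.05 by edgeR's quasi-likelihood test with Benjamini-Hochberg adjustment. With a fold change of at least 2 as well, 9 genes were higher (0.0523%) and 1 was lower (0.00582%). Of the 22 higher genes, 18 belonged to the interferon-inducible or MHC lists, 8 of them to lists that were not added after values were seen. The 22 higher genes had a median log2 fold change of 0.90 against p53mut. Their median was 0.93 for NrasG12D against control and 0.08 for p53mut against control, comparisons that share the control mice with each other.

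**Figure D1:**
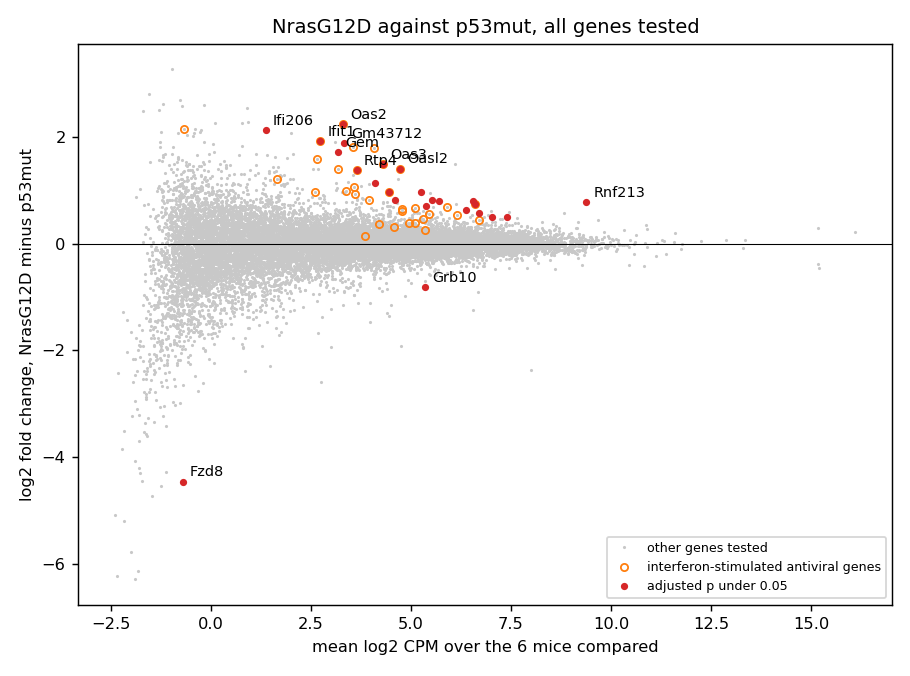
Log2 fold change of NrasG12D minus p53mut (vertical axis) against the mean log2 CPM of the 6 mice (horizontal axis) for the 17192 genes tested. Red points are the 24 called genes, and open orange circles mark the 32 interferon-stimulated antiviral genes, which all lie above 0.

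The number of calls rested on the libraries in the fit. With the 4 NPmut libraries added to the estimate of spread, edgeR called 0 genes, the smallest adjusted p among the 24 being 0.0951, and 861 of 17795 genes had an unadjusted p under 0.05. DESeq2 on the same 9 libraries as the first fit, but without its filter on low counts, called 92 genes higher and 31 lower of 43790. Leaving out NrasG12D replicate 3 left 5 genes higher, leaving out NrasG12D replicate 2 left 9, and leaving out p53mut replicate 1 left 8. With the receptor-gene reads (described above) as a term in the model, a measure that itself differed between the genotypes, 1 gene was called higher and 4 lower. Grb10, among the 4, was the only one of the 24 still called there. Across 20 alternatives, Oas2 ranged from 1.93 to 2.43 and no called gene changed sign. In all 24 the values did not overlap between the 2 genotypes, so that leaving out 1 mouse could hardly turn a sign.

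Promoters of the higher genes held the ISRE core more often than promoters at large. RefSeq promoter windows (GRCm38.p6, 250 bases before to 50 bases after a transcription start) were matched by symbol for 15 of the 22 higher genes. The core searched was GAAA, 2 free bases and a second GAAA, on both strands. It stood in a window of 5 of these 15 genes (33.3%), against 388 of 10220 tested genes with a window (3.80%). Among the 32 interferon-stimulated antiviral genes, 13 of 24 with a window held it (54.2%). GAS, searched as TTCNNNGAA on both strands, was in none of the 15 higher genes' windows (0%) and in 838 of the 10220 genes (8.20%). Among the interferon-stimulated antiviral genes it was in 7 of 24 with a window (29.2%). These shares are a description without a test, and the matches are letters, not bound factors.

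The 150 bases before the start are shown for 4 of the 5 genes with the core, Oas3, Slfn8, Ifit1 and Ifi206, to show where it lies in genes whose values follow. Capitals mark the core, and each sequence is read 5′ to 3′ on the gene's strand (GRCm38.p6).
Oas3, chr5:120777660-120777809, minus strand: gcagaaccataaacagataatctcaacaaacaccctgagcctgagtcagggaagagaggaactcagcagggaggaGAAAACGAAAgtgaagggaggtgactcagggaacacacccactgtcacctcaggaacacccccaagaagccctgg
Slfn8, chr11:83020811-83020960, minus strand: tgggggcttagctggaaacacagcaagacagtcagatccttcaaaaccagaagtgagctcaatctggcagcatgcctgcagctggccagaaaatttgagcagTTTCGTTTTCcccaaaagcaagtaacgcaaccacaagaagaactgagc
Ifit1, chr19:34640739-34640888, plus strand: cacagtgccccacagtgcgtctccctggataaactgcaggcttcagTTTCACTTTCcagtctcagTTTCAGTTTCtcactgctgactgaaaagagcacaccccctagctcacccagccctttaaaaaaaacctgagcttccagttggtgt
Ifi206, chr1:173491319-173491468, minus strand: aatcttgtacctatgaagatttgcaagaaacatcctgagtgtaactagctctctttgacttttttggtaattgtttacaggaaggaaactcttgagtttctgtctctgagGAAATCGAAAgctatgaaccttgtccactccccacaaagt

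The core began 75 bases before the start of Oas3, 48 before that of Slfn8 and 40 before that of Ifi206. Ifit1 held it at 104 and at 85 bases before the start. Slfn8, and Mndal below, each also had a window from another start, with a match to the core at another distance. The fifth gene was Mndal, a neighbour of Ifi206 on chromosome 1, whose core lay 36 bases before the start within a run of 20 bases that both windows share, gGAAATCGAAAgctatgaac.

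Antiviral effectors led the difference. Oas2 and Oas3 (chromosome 5, GRCm38) encode oligoadenylate synthetases, which sense double-stranded RNA and activate RNase L. Oas2 was 3.78, 4.23 and 5.67 CPM in p53mut mice and 15.8, 19.1 and 30.0 CPM in NrasG12D mice. Control mice had 5.0 to 6.39 CPM, so that the p53mut and control mice lay together and every NrasG12D mouse was far above them. The difference was 2.24 ± 0.25 on the log2 scale (adjusted p = 0.00358 by edgeR). Oas3 was 12.5, 8.24 and 14.8 CPM in p53mut and 31.1, 29.3 and 40.0 CPM in NrasG12D mice (1.49 ± 0.19, edgeR adjusted p = 0.0112). Oasl2, an OAS-like protein of the same family, differed by 1.41 ± 0.20 (edgeR adjusted p = 0.0183). Reads of the OAS family can be shared between close copies, so the split among its members is uncertain.

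Ifit1, which binds viral RNA lacking the host cap methylation, was 2.57, 3.48 and 4.25 CPM in p53mut mice and 9.10, 14.0 and 16.1 CPM in NrasG12D mice. The lowest NrasG12D mouse was above the highest of the 6 other mice, and the difference was 1.92 ± 0.30 (edgeR adjusted p = 0.0183). Rtp4, an interferon-induced chaperone of receptor transport, was 8.84, 5.52 and 8.86 CPM in p53mut and 19.2, 21.1 and 20.4 CPM in NrasG12D mice (1.38 ± 0.21, edgeR adjusted p = 0.0183). Dhx58, which encodes the RNA sensor LGP2, rose by 0.97 ± 0.17 (edgeR adjusted p = 0.0321), and Parp14, an ADP-ribosyltransferase, by 0.74 ± 0.11 (edgeR adjusted p = 0.0183).

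The other antiviral genes pointed the same way without passing the test one by one. Of the 32 interferon-stimulated antiviral genes, 7 were called higher and 0 lower, the remaining 25 being at an adjusted p from 0.0558. Over all genes tested, 0.128% were called higher. All 32 had a positive log2 fold change with a median of 0.88, against 8414 of 17192 positive and a median of −0.01 over all genes tested. In 28 of the 32, every NrasG12D mouse was above every p53mut mouse, where 6.24% of all genes tested showed this. The list median relative to the control mean was −0.08, −0.06 and 0.28 in the 3 p53mut mice and 0.68, 0.83 and 1.05 in the 3 NrasG12D mice. Its median for NrasG12D against control was 0.86 and that for p53mut against control was 0.06. In the fit with all 13 libraries and in every other alternative the list median stayed between 0.72 and 0.96.

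The interferon regulatory factors given here missed the threshold, and differences among them were not tested. Irf7, the factor that amplifies type I interferon production, was 5.66, 8.70 and 13.5 CPM in p53mut mice and 29.6, 29 and 39 CPM in NrasG12D mice. The groups did not overlap, and the difference was 1.80 ± 0.33 (edgeR adjusted p = 0.117). Irf1 had a log2 fold change of 0.46 ± 0.15 (edgeR adjusted p = 0.377). Irf2, Irf3 and Irf5 overlapped between the genotypes, with 0.08 ± 0.11, 0.01 ± 0.10 and 0.21 ± 0.22 (edgeR adjusted p = 0.916, 0.992 and 0.864). Irf8 overlapped as well, with 0.47 ± 0.28 (edgeR adjusted p = 0.716).

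Interferon genes themselves were almost unread. Ifnb1, Ifna1, Ifna2, Ifna4, Ifng, Ifnl2 and Ifnl3 had between 0 and 2 counts in each of the 6 libraries and were not tested. The receptor genes Ifnar1 and Ifnar2 had log2 fold changes of 0.18 ± 0.10 and 0.22 ± 0.11 (edgeR adjusted p = 0.682 and 0.607). RNA of other marrow cells was not analysed here, and a source of interferon outside the gate was not tested.

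**Figure D2:**
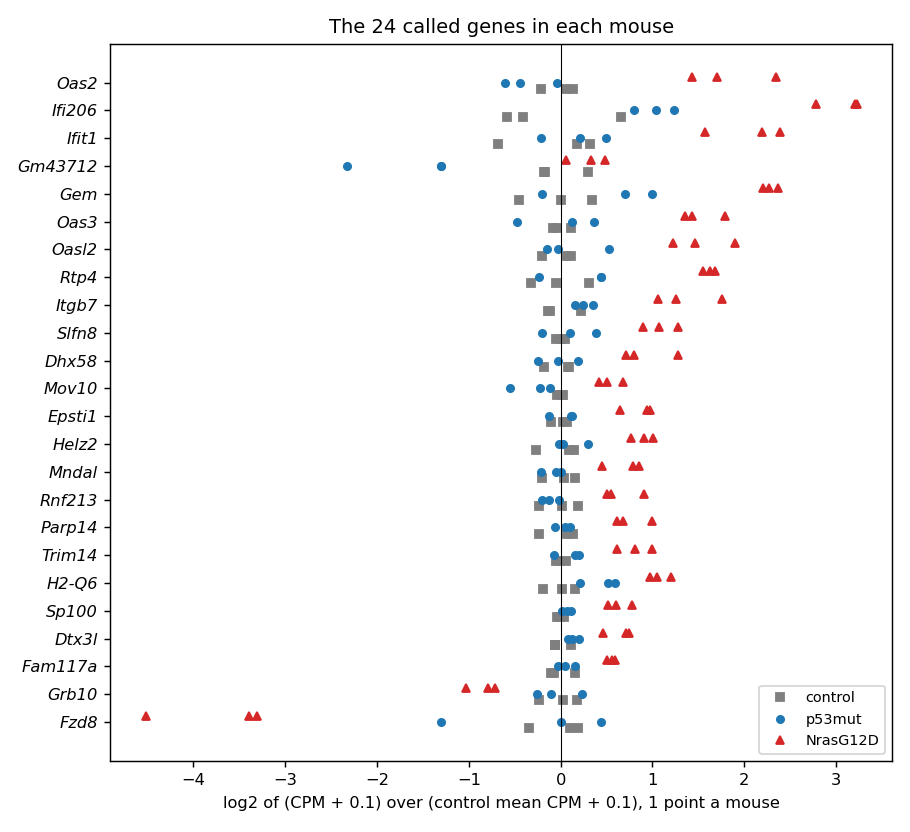
Each row is 1 of the 24 called genes and each point 1 mouse, plotted as the log2 of its CPM over the mean of the 3 control mice after adding 0.1 CPM to both. NrasG12D mice (triangles) stand to the right of p53mut mice (circles) in 22 rows and to the left in the rows of Grb10 and Fzd8. Control mice (squares) lie above all p53mut mice in the Gm43712 and Mov10 rows and below all of them in the Ifi206 and H2-Q6 rows.

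Interferon-inducible genes beyond the antiviral list repeated the pattern. They were grouped after their values were seen, so their counts describe them only. Of 31 such genes tested, 7 were called higher and 0 lower, with a median log2 fold change of 0.51 and 30 positive. Over all genes tested, 0.128% were called higher and 8414 of 17192 were positive. Rnf213, a giant ubiquitin ligase, was 507, 482 and 547 CPM in p53mut and 786, 809 and 1039 CPM in NrasG12D mice (0.78 ± 0.12, edgeR adjusted p = 0.0197). Epsti1 was 36.6, 30.9 and 36.5 CPM in p53mut and 52.7, 64.7 and 66.4 CPM in NrasG12D mice (0.82 ± 0.11, edgeR adjusted p = 0.0138). In both genes the p53mut mice sat within or next to the control range, at 471 to 631 CPM for Rnf213 and 31.4 to 35.3 CPM for Epsti1.

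The remaining 5 were Sp100, a component of PML nuclear bodies, Helz2, a helicase coactivator, Mov10, an RNA helicase that restricts retroelements, Trim14, an adaptor of antiviral signaling, and Dtx3l, a ubiquitin ligase that pairs with PARP9. Their log2 fold changes were 0.57, 0.79, 0.83, 0.71 and 0.51. Mov10 alone of these 5 was not called against control (edgeR adjusted p = 0.0646). Its p53mut values of 19.2, 15.3 and 20.8 CPM were below all 3 control values, which ran from 21.9 to 22.8 CPM.

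The PYHIN genes, a cluster on chromosome 1 that encodes DNA sensors and their relatives, were also grouped after their values were seen, as were the Schlafen genes. Over all genes tested, 0.128% were called higher. Of 11 PYHIN genes tested, 2 were called, 10 had positive log2 fold changes, and the median was 1.22, with a range from 0.67 to 1.79 over the alternatives. Ifi206 was 1.36, 0.983 and 1.18 CPM in p53mut and 4.17, 5.61 and 5.72 CPM in NrasG12D mice (2.13 ± 0.38, edgeR adjusted p = 0.0355). Its control mice had 0.315 to 0.883 CPM, so that p53mut mice lay between the control and the NrasG12D mice, although p53mut against control was not called (1.16, edgeR adjusted p = 0.894). Mndal was 42.4, 36.5 and 40.9 CPM in p53mut and 58.0, 76.6 and 73.0 CPM in NrasG12D mice (0.79 ± 0.12, edgeR adjusted p = 0.0183). These genes are close copies, and the counting program could divide shared reads among them. Of 8 Schlafen genes tested, 1 was called, Slfn8, at 27.0, 21.8 and 32.8 CPM in p53mut and 46.8, 52.9 and 61.1 CPM in NrasG12D mice (0.98 ± 0.14, edgeR adjusted p = 0.0156).

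Interferon-inducible GTPases, many of which act on the membranes of intracellular pathogens, had a median of 0.64 over 17 genes with 0 called (14 positive, 3 negative). In 8 of them the NrasG12D mice were above all p53mut mice, against 6.24% of all genes tested. The list median was 0.41 with receptor reads as a term and 0.27 without p53mut replicate 1. Tgtp2 came nearest the threshold, at 27.7, 30.3 and 39.1 CPM in p53mut and 50.2, 59.8 and 78.9 CPM in NrasG12D mice (0.95 ± 0.18, edgeR adjusted p = 0.0818). Gvin1 and Mx2, the latter annotated as a polymorphic pseudogene, had log2 fold changes of 1.41 and 1.66 (edgeR adjusted p = 0.106 for each). Mx1, picked after its values were seen because its promoter drives the Cre transgene, was 2.04, 0.681 and 3.48 CPM in p53mut and 7.22, 6.95 and 12.5 CPM in NrasG12D mice. Its log2 fold change was 2.07 ± 0.43 (edgeR adjusted p = 0.106), with no overlap between the groups.

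Among antigen presentation genes 1 passed the test. Of 25 MHC class I and peptide-loading genes, 1 was called higher, against 0.128% of all genes tested, with 23 positive and a median of 0.29. The called gene was H2-Q6, a nonclassical class I gene, at 57.1, 74.0 and 70.1 CPM in p53mut and 102, 96.7 and 113 CPM in NrasG12D mice (0.63 ± 0.11, edgeR adjusted p = 0.0355). Controls had 43.1 to 54.7 CPM, all below the p53mut mice, and p53mut against control was 0.45 (edgeR adjusted p = 0.724). The neighbouring H2-Q4 and the classical H2-K1 had log2 fold changes of 0.39 and 0.29 (edgeR adjusted p = 0.171 and 0.184). H2-Q genes are near-identical in places, and reads can be shared among them.

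All 10 MHC class II genes tested had positive fold changes, with a median of 0.66 and 0 called. H2-Ab1 was 16.8, 18.5 and 17.5 CPM in p53mut and 26.7, 36.4 and 22.7 CPM in NrasG12D mice (0.70 ± 0.17, edgeR adjusted p = 0.161). Cd74, the invariant chain, was 7.17, 16.2 and 9.27 CPM in p53mut and 18.7, 32.9 and 19.7 CPM in NrasG12D mice (1.13 ± 0.32, edgeR adjusted p = 0.319). Ciita, the coactivator of class II genes, had a log2 fold change of 1.21 ± 0.32 (edgeR adjusted p = 0.239). In bulk RNA, more cells of a type and more RNA per cell cannot be told apart. The 11 dendritic cell genes tested had a median of 0.26 (9 positive, 0 called), and the 10 B lymphoid genes a median of −0.07 (5 positive, 0 called) whose sign turned in 4 alternatives, and the part of either cell type in these values was not tested.

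**Figure D3:**
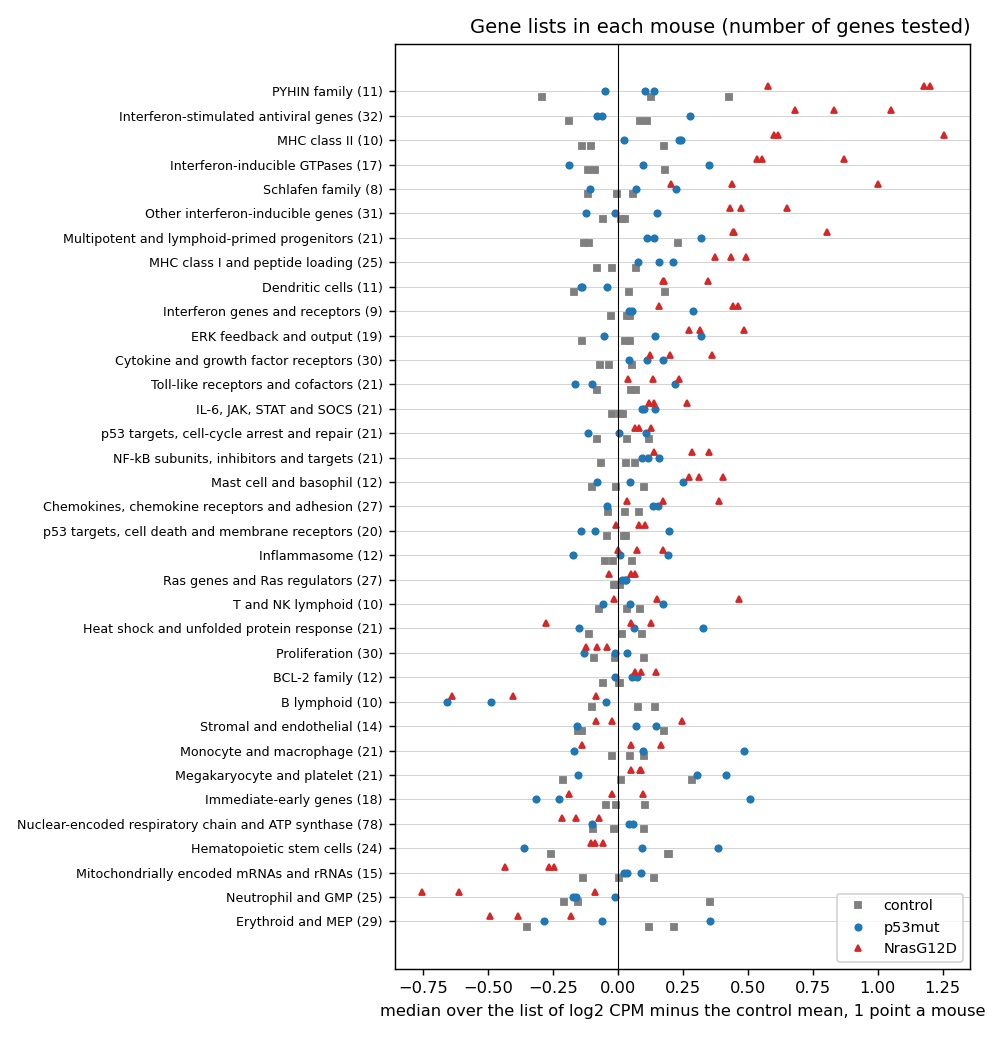
Each row is a gene list with its number of genes tested in parentheses, and each point is the median over the list of 1 mouse's log2 CPM minus the mean of the 3 control mice. The 3 NrasG12D mice lie above all p53mut and control mice in the rows of the interferon-stimulated antiviral genes, the GTPases, the MHC lists and the PYHIN family, whereas the points of the 2 p53 target lists overlap.

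Genes downstream of ERK did not reach the threshold between the single mutants. Of 19 genes of ERK feedback and output tested, 0 were called, 16 had positive log2 fold changes and the median was 0.17, which ran from 0.07 with receptor reads as a term to 0.44 without p53mut replicate 3. Dusp6, the phosphatase that switches off ERK, was 31.9, 24.1 and 31.8 CPM in p53mut and 39.8, 48.7 and 42.1 CPM in NrasG12D mice (0.57 ± 0.13, edgeR adjusted p = 0.149). Against control it was called in NrasG12D mice (1.02, edgeR adjusted p = 0.00247). The 3 p53mut mice were above all control mice, which had 19.3 to 23.4 CPM, and p53mut against control was 0.45 (edgeR adjusted p = 0.813).

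Ccnd1, which encodes the G1 cyclin D1, was 24.5, 12.7 and 14.6 CPM in p53mut and 32.3, 53.1 and 34.3 CPM in NrasG12D mice (1.21 ± 0.26, edgeR adjusted p = 0.166). Emp1, a membrane protein induced by growth factors, had 1.62 ± 0.39 (edgeR adjusted p = 0.161). The sprouty inhibitor Spry4 and the ETS factor Etv5 overlapped between the genotypes, with 0.77 ± 0.39 and 0.40 ± 0.22 (edgeR adjusted p = 0.622 and 0.672).

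No p53 target was called between the genotypes. Of 21 arrest and repair targets tested, 0 were called and the median was 0.08, and of 20 death and membrane receptor targets, 0 were called and the median was 0.02. The latter median ran from −0.07 to 0.19 over the alternatives and turned its sign in 4 of them. Cdkn1a, which encodes the cell-cycle inhibitor p21, was 5.97, 3.10 and 2.18 CPM in p53mut and 3.35, 5.01 and 5.59 CPM in NrasG12D mice (0.32 ± 0.35, edgeR adjusted p = 0.878). The genotypes overlapped in full, as they did for Mdm2, the ubiquitin ligase of p53, with 75.2, 59.3 and 60.8 CPM in p53mut and 73.9, 66.5 and 65.8 CPM in NrasG12D mice.

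A target whose values did not overlap was Phlda3, an inhibitor of AKT, at 1.21, 0.302 and 0.472 CPM in p53mut and 1.82, 1.94 and 1.84 CPM in NrasG12D mice. Its log2 fold change was 1.5 ± 0.49 (edgeR adjusted p = 0.365). Trp53inp1, also without overlap, and Zmat3, with overlap, had 0.67 ± 0.19 and 0.86 ± 0.32 (edgeR adjusted p = 0.243 and 0.451). Trp53inp1 was called in NrasG12D against control (0.94, edgeR adjusted p = 0.0270). At an unadjusted p under 0.05 by edgeR, 2 arrest and repair targets and 4 death and membrane receptor targets were higher and 0 were lower. Over all 17192 genes, 708 were higher and 771 lower at that level. p53mut against control called 0 genes of 17192 (0%), with 923 at an unadjusted p under 0.05. NrasG12D against control called 155 higher (0.902%) and 37 lower (0.215%). With all 13 libraries in the edgeR fit, it called 1 higher and 0 lower, so calls against control also rested on the libraries fitted. Both comparisons share the control mice.

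Lists of progenitor types held 0 called genes and leaned in different directions. Genes of multipotent and lymphoid-primed progenitors had a median of 0.44 over 21 genes (18 positive), and 11 of them were higher in every NrasG12D mouse than in any p53mut mouse, against 6.24% of all genes tested. Over the alternatives this median ran from 0.27 to 0.53. Notch1 was 109, 128 and 96.7 CPM in p53mut and 150, 180 and 141 CPM in NrasG12D mice (0.50 ± 0.12, edgeR adjusted p = 0.149). Satb1, a chromatin organizer of lymphoid priming, was 110, 89.5 and 107 CPM in p53mut and 146, 171 and 130 CPM in NrasG12D mice (0.55 ± 0.12, edgeR adjusted p = 0.149). Flt3, the receptor that marks multipotent progenitors, had no overlap at 78.9 to 128.9 CPM in p53mut and 129.3 to 202 CPM in NrasG12D mice, and its difference of 0.62 ± 0.29 did not pass (edgeR adjusted p = 0.629).

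Hematopoietic stem cell genes had a median of −0.16 over 24 genes, with 7 positive, 17 negative and 0 called. This median was −0.77 with receptor reads as a term and turned to 0.04 without p53mut replicate 3. Fgd5, which is restricted to stem cells and endothelium, was 4.98, 5.52 and 6.85 CPM in p53mut and 1.06, 2.27 and 1.97 CPM in NrasG12D mice (−1.72 ± 0.33, edgeR adjusted p = 0.0713). Hoxa9 and Ly6a pointed the other way, with 0.44 ± 0.13 and 1.01 ± 0.41 (edgeR adjusted p = 0.293 and 0.509). Ly6a, the gene of the Sca-1 antigen, is itself interferon-inducible.

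Erythroid genes had a median of −0.45 over 29 genes, of which 26 were negative and 0 called. Hbb-bs, an adult β-globin, was 2.49, 1.74 and 1.83 CPM in p53mut and 0.587, 0.401 and 0.263 CPM in NrasG12D mice, resting on 4 to 33 counts per library (−2.24 ± 0.45, edgeR adjusted p = 0.0839). Slc4a1 and Alas2, genes of late erythroid cells, had −2.39 ± 0.50 and −2.47 ± 0.58 (edgeR adjusted p = 0.106 and 0.149). The receptor-gene background was also lower in every NrasG12D mouse than in any p53mut mouse. Per length it would give 0.68% of the Hbb-bs reads in p53mut and 1.4% in NrasG12D mice, 2.0% and 4.6% of the Slc4a1 reads, and 2.8% and 6.8% of the Alas2 reads. With receptor reads as a term the list median was −0.77, and over all alternatives it ran from −0.77 to −0.13, the latter without p53mut replicate 3. Genes of neutrophils and granulocyte-monocyte progenitors had a median of −0.38 over 25 genes (23 negative, 0 called), which was −0.05 with receptor reads as a term. The 30 proliferation genes had a median of −0.04 (22 negative, 0 called), which was 0.09 with that term.

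Outside the interferon and MHC lists, 4 genes were called higher. Gem, a small GTP-binding protein, was 6.72, 2.87 and 5.49 CPM in p53mut and 17.5, 15.7 and 16.5 CPM in NrasG12D mice (1.72 ± 0.27, edgeR adjusted p = 0.0194). Itgb7, the integrin β7 chain that pairs with α4 or αE in homing of leukocytes, was 12.5, 10.8 and 11.5 CPM in p53mut and 23.4, 33.2 and 20.3 CPM in NrasG12D mice (1.14 ± 0.19, edgeR adjusted p = 0.0197). It was the only called gene among 27 chemokine and adhesion genes, whose median was 0.04, and 0.128% of all genes tested were called higher. Fam117a was 118, 109 and 104 CPM in p53mut and 157, 160 and 150 CPM in NrasG12D mice (0.50 ± 0.09, edgeR adjusted p = 0.0321). For these 3 genes, the NrasG12D mice were also above all 3 control mice.

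Gm43712 was different in that the p53mut mice set the difference. It is annotated as an unprocessed pseudogene on the plus strand at chr3:90126767-90127057 (GRCm38), within the bounds of Nup210l on the same strand. It was 6.42, 3.10 and 6.44 CPM in p53mut, 22.4, 20.2 and 16.6 CPM in NrasG12D and 14.0 to 19.7 CPM in control mice. The difference between the mutants was 1.88 ± 0.25 (edgeR adjusted p = 0.0138), whereas p53mut against control was −1.58 and not called (edgeR adjusted p = 0.316). Reads of a pseudogene can be shared with its parent copy and with the host gene, so the origin of these reads is uncertain.

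Grb10 and Fzd8 were the 2 genes called lower. Grb10, an imprinted adaptor that restrains insulin and IGF receptors, was 51.1, 46.1 and 65.0 CPM in p53mut and 31.9, 33.5 and 27.0 CPM in NrasG12D mice. All NrasG12D mice were below the control mice as well, which had 46.8 to 62.4 CPM, and the difference was −0.81 ± 0.14 (edgeR adjusted p = 0.0355). Fzd8, a Wnt receptor, had 11, 29 and 51 counts in p53mut and 2, 0 and 2 counts in NrasG12D libraries (−4.46 ± 0.70, edgeR adjusted p = 0.0183). At this depth its level in NrasG12D cells was close to what the background of receptor genes per length would give. That background would account for 55% of the NrasG12D reads and 5.1% of the p53mut reads. Other genes low in NrasG12D mice, picked among those without overlap, missed the threshold. They included Sdc2, Nbea and Cd24a, with −1.58 ± 0.38, −1.35 ± 0.32 and −0.45 ± 0.10 (edgeR adjusted p = 0.161, 0.161 and 0.122).

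Reads of the mitochondrial genome made up 10.03%, 9.02% and 9.69% of counts in p53mut and 6.64%, 7.31% and 7.70% in NrasG12D mice, and 9.16% ± 0.797 (SD, n = 3) in control mice. Of 15 mitochondrially encoded genes tested, 13 had negative log2 fold changes, 0 were called and the median was −0.27. In 8 of them every NrasG12D mouse was below every p53mut mouse, where 7.39% of all genes tested showed this. mt-Cytb, a subunit of complex III, was 2115, 2055 and 2110 CPM in p53mut and 1393, 1665 and 1621 CPM in NrasG12D mice (−0.42 ± 0.08, edgeR adjusted p = 0.0818).

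Nuclear genes of the respiratory chain and ATP synthase had a median of −0.13 over 78 genes, with 66 negative and 0 called. Ndufv2 and Ndufb9, subunits of complex I, had −0.43 ± 0.09 and −0.49 ± 0.10 (edgeR adjusted p = 0.0818 and 0.112). Both lists were formed after values were seen. With the receptor-gene reads as a term, the median of the nuclear list was 0.05, so its direction turned, while that of the mitochondrially encoded list was −0.30.

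**Figure D4:**
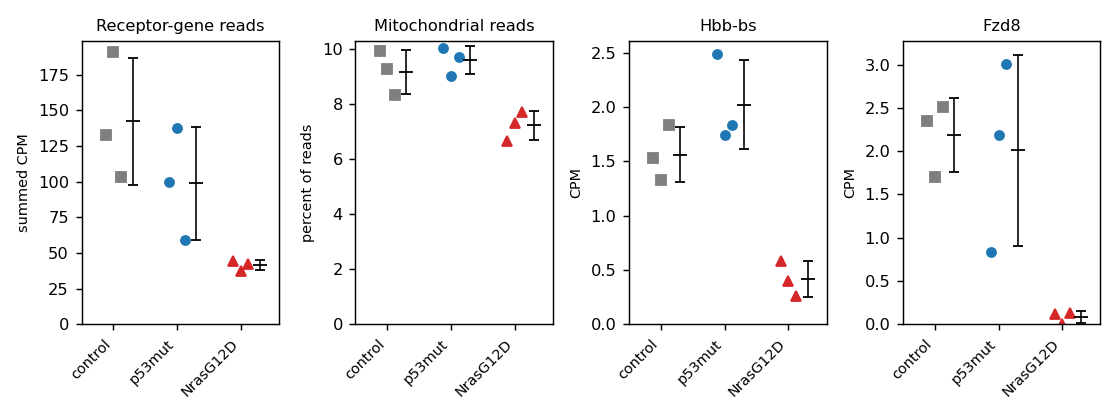
The panels give, for each of 9 mice, the summed CPM of 1459 receptor genes, the percent of counts from the mitochondrial genome, and the CPM of Hbb-bs and Fzd8, with the mean and SD of each group (n = 3) beside the points. In all 4 panels the 3 NrasG12D mice lie below every p53mut and control mouse.

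The moribund NPmut mice, which had received no pI-pC, were read beside these values without a test. Oas2 was 0.508 to 2.07 CPM, Irf7 4.07 to 6.26 CPM and Ifit1 0.763 to 1.85 CPM in the 4 NPmut mice, all below the 3 NrasG12D mice on the same scale. Among the called genes of the interferon and MHC lists, only Sp100, Epsti1 and Mndal overlapped. Sp100 was 92.7 to 117 CPM in NPmut and 115 to 138 CPM in NrasG12D mice. Epsti1 was 28.9 to 55.6 CPM in NPmut and 51.9 to 65.3 CPM in NrasG12D mice. The other called genes of these lists were below all NrasG12D mice in every NPmut mouse. Rnf213, for example, was 140 to 420 CPM in NPmut and 774 to 1022 CPM in NrasG12D mice. Helz2 was 27.4 to 60.3 CPM and 111 to 131 CPM. Cd74, a gene of the MHC class II list that was not called, went the other way. It was 24.5 to 84.2 CPM in NPmut and 18.4 to 32.2 CPM in NrasG12D mice, with means of 58.4 and 23.3 CPM. Gem, at 10.9 to 34.7 CPM, and Itgb7, at 26.3 to 45.8 CPM, were in or above the range of NrasG12D mice in 3 of 4 and in 4 of 4 NPmut mice. Grb10 was 3.05 to 7.01 CPM in NPmut, below all 9 other mice. Genotype, pI-pC and disease differ together in these mice and cannot be told apart.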

How the data were processed

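Per the labels, libraries were made with a stranded total RNA kit (SMARTer Stranded Total RNA-Seq v1, Pico Input). The authors deposited raw read counts per gene for all 13 mice in 1 table, aligned with STAR 2.6.1d to GRCm38.p6 and analysed in R 3.6.1 with DESeq2 1.26.0 per the submitters' processing notes. The counting program and its use of strand are not given in the sources used here, so antisense partners cannot be told apart. No row without a gene was present (0 rows), and 0 columns lacked a sample.

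The 3 control, 3 p53mut and 3 NrasG12D libraries were fitted with edgeR 4.0.16 in R 4.3.3: filterByExpr, TMM, robust quasi-likelihood F test, NrasG12D minus p53mut. NPmut mice were left out of this fit because pI-pC and disease differed. Genes with a Benjamini-Hochberg adjusted p under 0.05 were called, and those with at least a 2-fold change as well were counted separately. CPM, counts per library total scaled to 1000000, used TMM-scaled totals of these 9 libraries (prior count 2 for log2 CPM of lists), or of all 13 where NPmut is given. SE is the log2 fold change over the root of F. Names, coordinates and exonic lengths came from GENCODE M21 (54809 of 54838 identifiers matched). Mice are separate animals, and with 3 against 3 a permutation test cannot go below 0.1, so none was used.

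Genes were named by rule: the mutated genes, up to 10 per direction among protein-coding genes ordered by fold change then p, the 3 with the smallest p in each list, all members of any count up to 5, and preset markers. The comparison and all 35 lists were chosen with earlier results of these data known, and 6 lists were added after values were seen. Scripts were tested on simulated data. Alternatives were DESeq2 1.42.0, other scalings and filters, other sets of libraries, a replicate block, sex or receptor reads as a term, and leaving out each mouse. Leaving out controls and a background filter were chosen after seeing the data. Results for some items are not reported here.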

Additional observations from a re-analysis of the deposited data

How the results depend on the processing

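The counts of called genes depended on the fit. The 24 called genes kept their direction in each of 20 alternatives, or of 19 for Fzd8 and Ifi206, which 1 filter removed. Their values did not overlap between the 2 genotypes, so a kept direction adds little. Against 22 higher, 2 lower and 10 with at least a 2-fold change, DESeq2 without the filter on low counts called 92, 31 and 51. Without that filter, edgeR called 214, 81 and 110. All 13 libraries gave 0, 0 and 0 (edgeR, 861 genes at an unadjusted p under 0.05), sex as a term 40, 9 and 20, and receptor reads as a term 1, 4 and 5. Scaling by library totals gave 4 lower genes, and the 6 libraries alone gave 1. Leaving out 1 mouse at a time left 5 to 33 genes higher, 0 to 5 lower and 3 to 20 with a 2-fold change. The fewest higher genes were left without NrasG12D replicate 3 (5), p53mut replicate 1 (8) and NrasG12D replicate 2 (9), and counts with a 2-fold change rose to 19 without p53mut replicate 3 and to 20 without NrasG12D replicate 1. Lower genes numbered 4 without p53mut replicate 1, 5 without p53mut replicate 2, 4 without p53mut replicate 3, 0 without NrasG12D replicate 2, and 1 without NrasG12D replicate 3 or control replicate 2. The cause of these shifts was not tested.

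Replicate numbers did not pair the mice: same-numbered NrasG12D and p53mut libraries had correlations of −0.042, −0.035 and −0.047 in their deviations over 17192 genes, and no sample correlated best with its own number. The replicate block gave 39 higher, 5 lower and 20 with a 2-fold change. The median of the interferon-stimulated antiviral genes stayed between 0.72 and 0.96 in 20 alternatives. Of 1671 values for 84 named genes over the alternatives, 1430 kept their side of the threshold and direction, 129 lost the call, 104 gained it and 8 reversed. Trp53 turned at 0.020 without the filter and 0.065 with receptor reads as a term, and among the values without 1 mouse, which ran from −0.034 to 0.027. Irf2 turned to −0.26 and Irf3 to −0.17 with that term, and without 1 mouse Irf3 ran from −0.0056 to 0.028 and Irf5 from −0.0064 to 0.55. With 3 mice a group, low-count genes such as Fzd8 were limited by depth.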
